A study of Mus musculus with 12 samples.

Results

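The 10 genes described here encode the precursors of hypothalamic neuropeptides: Avp, Oxt, Pmch, Hcrt, Trh, Agrp, Pomc, Gal, Cartpt and Nts. They were taken by symbol from the 32285 genes of the count matrices, and their UMIs (unique molecular identifiers, 1 for each captured RNA molecule) were read over the 111187 neuron nuclei among 184956 retained nuclei. Single-nucleus RNA sequencing was done on sorted nuclei of the left hippocampus of female mice, with 3 libraries each of 3xTg-AD and WT mice at 6 months and at 12 months of age. 3xTg-AD mice carry human APP and MAPT transgenes with mutations of familial disease (APPSwe and tauP301L), driven by a Thy1 cassette that is active in neurons. The WT mice were littermates without the transgenes, and all 12 animals were female. Replicates keep the numbers 1 to 12 of the sample titles, so that each number names 1 library.

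Neuropeptide precursors are cut by proprotein convertases in the secretory pathway, packed into dense-core vesicles and released to act on G protein-coupled receptors. Vasopressin (Avp) and oxytocin (Oxt) are made by magnocellular neurons of the paraventricular and supraoptic nuclei, and vasopressin also by the suprachiasmatic clock. Melanin-concentrating hormone (Pmch) and orexin (Hcrt) mark separate neurons of the lateral hypothalamus, while Agrp and Pomc mark the opposing feeding neurons of the arcuate nucleus. Trh drives the thyroid axis, and Gal, Cartpt and Nts are made in the hypothalamus and in several other regions, the striatum and amygdala among them. The hippocampus is not known as a source of vasopressin, oxytocin, melanin-concentrating hormone or orexin precursors.

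Retained nuclei per library ranged from 11352 to 19811, with 79177051 to 128323908 UMIs in each library and median depths of 4345 to 6698.5 UMIs per nucleus. Neuron nuclei numbered 7093 to 11661 per library. Between 0.255% and 0.648% of barcodes were shared by any pair of libraries. The mouse App and Mapt counts passed the test between genotypes at neither age, so that they gave no check of the labels.

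All 10 genes are short genes on GRCm38, apart from Agrp. Oxt (chr2:130576173-130577054, plus strand) and Avp (chr2:130580620-130582554, minus strand) lie tail to tail with 3565 bases between their annotated ends. Pmch (chr10:88091072-88092375) overlaps the 3′ part of Parpbp, which runs on the other strand. Hcrt (chr11:100761069-100762931), Trh (chr6:92242061-92244650), Pomc (chr12:3954951-3960642), Gal (chr19:3409915-3414544), Cartpt (chr13:99898489-99901091) and Nts (chr10:102481756-102490486) overlap no other annotated gene. Agrp (chr8:105566698-105637393, minus strand) spans 70696 bases in GENCODE vM21, because 1 of its 3 annotated transcripts starts far upstream, whereas the shortest spans 1601 bases. The long span overlaps 7 other genes, 2 of them on the same strand (Gm45855 and Gm5914), and Ripor1 and Ctcf lie across it on the other strand.

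The promoters of the Avp and Oxt pair are shown, since both genes were found at high levels in the same group of nuclei and Avp also in a second group. The sequences are those of RefSeq on GRCm38.p6, from 250 bases before to 50 bases after the transcription start, and 9 of the 10 genes had an entry. Capitals in Avp (chr2:130582539-130582838, minus strand) mark the E-box CACGTG, which is known as a binding site of circadian clock factors. Capitals in Oxt (chr2:130575919-130576218, plus strand) mark TGACC or its reverse complement GGTCA, a half-site of nuclear hormone receptors.
Avp: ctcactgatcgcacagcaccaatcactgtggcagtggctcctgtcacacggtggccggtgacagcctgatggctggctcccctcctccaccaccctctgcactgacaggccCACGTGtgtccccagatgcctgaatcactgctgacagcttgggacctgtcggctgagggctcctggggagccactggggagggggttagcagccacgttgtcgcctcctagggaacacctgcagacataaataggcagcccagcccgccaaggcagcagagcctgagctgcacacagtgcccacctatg
Oxt: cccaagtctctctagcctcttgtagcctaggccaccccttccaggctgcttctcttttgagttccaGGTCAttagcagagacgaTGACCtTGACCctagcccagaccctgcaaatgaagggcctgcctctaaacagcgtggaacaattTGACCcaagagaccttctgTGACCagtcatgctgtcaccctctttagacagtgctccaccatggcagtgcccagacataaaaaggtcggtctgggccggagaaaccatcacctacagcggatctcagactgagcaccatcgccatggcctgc
Both strands were searched, and CACGTG is its own reverse complement. The Avp promoter held 1 E-box, which 7.15% of 32851 promoters of the same length held, and none of the other 8 promoters of these genes did. The Oxt promoter held 5 half-sites. At least 1 was present in 40.5% of all promoters and at least 3 in 2.35%, and Trh, Pomc, Gal and Cartpt held 1 each.

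The genes fell into different patterns of UMIs per nucleus. Avp, Oxt, Pmch and Hcrt were concentrated in few nuclei with many UMIs, and most of the other neuron nuclei had either none or 1. A nucleus with at least 5 UMIs of a gene is called rich in that gene. The 320 Avp-rich neuron nuclei carried 83.0% of all neuronal Avp UMIs, with a median of 30 and up to 272 UMIs in a nucleus. The 116 Oxt-rich nuclei carried 82.3% (median 64, up to 221 UMIs), the 134 Pmch-rich nuclei 80.7% (median 45.5, up to 151) and the 72 Hcrt-rich nuclei 75.9% (median 33.5, up to 103). Few nuclei lay between the background and the rich state for Oxt, where 1325 nuclei had 1 UMI, 18 had 3 or 4, 7 had 5 to 9 and 76 had 50 or more.

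Pomc lay between the patterns, with 87 rich nuclei that held 46.7% of its UMIs and up to 92 UMIs. Cartpt (324 rich nuclei, 36.8% of UMIs), Gal (189, 34.7%), Nts (221, 30.8%) and Trh (58, 21.0%) had fewer nuclei at each step from 1 UMI upward, with a median of 6 or 7 UMIs in a rich nucleus. Agrp was unlike the other 9 genes. It had a UMI in 17.2% of neuron nuclei, and its 66 rich nuclei held 1.92% of its UMIs. Over the 56 neuron clusters of at least 100 nuclei, the share of nuclei with an Agrp UMI ran from 3.67% to 30.8%. The median cluster had 18.5% for Agrp and 2.23% or less for each of the other 9 genes. The highest cluster was not highest for Agrp, with 51.2% for Avp and 42.9% for Nts.

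**Figure D1:**
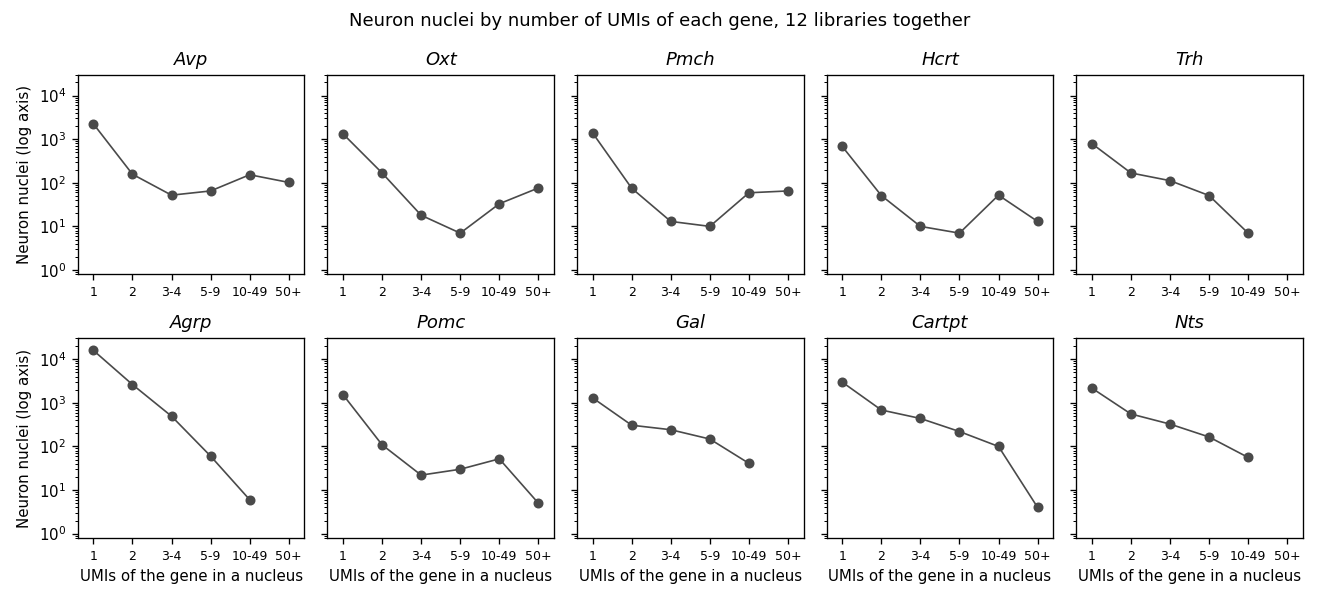
Number of neuron nuclei (log axis) by the number of UMIs of each gene in the nucleus, in bins of unequal width, with the 12 libraries together and nuclei without a UMI left out. For Avp, Oxt, Pmch, Hcrt and Pomc the number of nuclei rises again in the wider bins from 10 UMIs upward, such as the 76 nuclei with 50 or more Oxt UMIs. For Pomc, 30 nuclei had 5 to 9 UMIs and 57 had 10 or more, so that bin width may account for its rise. Agrp falls from 15964 nuclei with 1 UMI to 6 nuclei with 10 or more.

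Every library held rich nuclei of 9 of the 10 genes, and Pomc-rich nuclei were found in 11 of 12 libraries. Nuclei rich in at least 1 of the genes numbered 1496, or 1.35% of neuron nuclei. By library they numbered 81, 130 and 129 in WT mice and 95, 142 and 171 in 3xTg-AD mice at 6 months, and 115, 137 and 140 in WT mice and 123, 66 and 167 in 3xTg-AD mice at 12 months. The groups overlapped at both ages, and the lowest share, 0.696% of neuron nuclei, was in 3xTg-AD replicate 6 of 12 months, the highest, 1.97%, in WT replicate 12 of 12 months.

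Avp-rich nuclei numbered 14, 36 and 26 in WT and 18, 28 and 38 in 3xTg-AD libraries at 6 months, and 30, 42 and 19 in WT and 26, 11 and 32 in 3xTg-AD libraries at 12 months. Oxt-rich nuclei numbered 2, 14 and 6 in WT and 6, 10 and 13 in 3xTg-AD libraries at 6 months, and 11, 8 and 13 in WT and 6, 5 and 22 in 3xTg-AD libraries at 12 months. Both genes were represented in each animal, and the genotypes overlapped at both ages. Pmch-rich nuclei ranged from 4 to 18 per library, Hcrt-rich nuclei from 2 to 12 and Trh-rich nuclei from 1 to 17. Of the 58 Trh-rich nuclei, 17 came from WT replicate 12 of 12 months. Agrp-rich nuclei ranged from 2 to 16, Gal-rich from 8 to 28, Cartpt-rich from 16 to 44 and Nts-rich from 6 to 30 per library.

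The hypothalamic origin of these nuclei was checked against 12 transcription factors of the hypothalamus (Sim1, Otp, Nkx2-1, Nkx2-4, Tbx3, Hmx2, Hmx3, Fezf1, Nr5a1, Six6, Bsx and Prdm12). At least 1 UMI of a factor was present in 94.0% of Oxt-rich nuclei (95% Wilson interval 88.1% to 97.0%), 87.9% of Trh-rich, 71.3% of Pomc-rich, 67.2% of Avp-rich, 57.6% of Agrp-rich and 56.7% of Pmch-rich nuclei, against 9.07% to 9.21% of the neuron nuclei that were not rich in the respective gene. The Wilson interval pools the libraries and covers counting error only. The factor level was higher in the rich nuclei in every library with at least 5 of them, for each of these 6 genes. Single factors carried much of these shares: Sim1 was in 62.2% of Avp-rich, 93.1% of Oxt-rich and 84.5% of Trh-rich nuclei, and Nkx2-1 in 55.2% of Pmch-rich nuclei. Nkx2-1 was in 0.938% of Avp-rich nuclei against 2.61% of the others. Tbx3 was in 50.6% of Pomc-rich nuclei. Sim1, Otp, Tbx3 and Prdm12 are also among the partner genes below, and as partners they are thus no separate check. Median depths were 7025 (Avp) to 10825 (Pmch) UMIs in rich nuclei of the 10 genes and 7560 to 7567 UMIs in the others, and the part of depth in the shares was not tested.

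Hcrt-rich nuclei had a factor UMI in 22.2% of nuclei, but their summed factor level, 22.6 CPM (UMIs scaled to the total of the summed nuclei), did not exceed the 23.7 CPM of other neuron nuclei, and it was higher in 3 of 9 libraries. Hmx2, a homeobox gene, was present in 13.9% of them against 0.321% of the others, and Hmx3 in 8.33% against 0.155%. Sim1 was in 0% of them against 3.96% of the others and Nkx2-1 in 0% against 2.61%. Otp, Nkx2-4, Tbx3, Fezf1, Nr5a1, Six6 and Prdm12 were likewise not seen in Hcrt-rich nuclei. With 72 nuclei, a count of 0 allows a share of up to 4.17%.

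For Gal, Nts and Cartpt, the factor level was not higher throughout. Gal-rich and Nts-rich nuclei had factor levels of 24.8 and 19.6 CPM, against 23.7 CPM in the others, and were higher in 5 of 12 libraries each. Single factors differed from that sum: Sim1 made up 14.1 of the 23.7 CPM in the others, while Hmx2 was present in 10.6% of Gal-rich nuclei against 0.313% of the others and Hmx3 in 4.23% against 0.153%. Sim1 was in 0.529% of Gal-rich nuclei against 3.96% of the others. Otp, Nkx2-4, Tbx3, Fezf1, Nr5a1 and Prdm12 were not seen in Gal-rich nuclei. Cartpt-rich nuclei were higher than other neurons in hypothalamic factors in 11 of 12 libraries and in a list of striatal genes, Drd1 and Drd2 among them, in 12 of 12 libraries, at 325 against 161 CPM.

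Most rich nuclei of Avp, Oxt, Pmch, Hcrt, Pomc and Gal lay in 1 or 2 of the 60 neuron clusters, which were made without the 10 genes. A cluster of 1492 nuclei led by the activity genes Fos, Fosb, Btg2 and Junb held 191 of 320 Avp-rich and 90 of 116 Oxt-rich nuclei. A cluster of 246 GABAergic nuclei, led by Prr5l, Cdc14a, Kcnh8, Csta2 and Vipr2, the receptor of vasoactive intestinal peptide, held another 82 Avp-rich nuclei, which made up 33.3% of it. This cluster had between 0 and 49 nuclei per library. Of the Pmch-rich nuclei, 90 of 134 lay in a cluster of 401 nuclei led by Dach2, Plce1, Igf1, Meis1 and Abtb2.

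A cluster of 5943 nuclei led by Esr1, the estrogen receptor, and Prlr, the prolactin receptor, held 66 of 72 Hcrt-rich, 81 of 87 Pomc-rich, 132 of 189 Gal-rich and 41 of 66 Agrp-rich nuclei, so that peptides of feeding and of arousal shared 1 cluster at this resolution. Trh-rich nuclei lay mainly in a cluster of 6210 nuclei led by Baiap3 and Prlr (32 of 58). Nts-rich nuclei were most frequent in a GABAergic cluster led by Prdm16, Myo5b and Ano1 (90 of 221), and Cartpt-rich nuclei were spread over 29 clusters, with 82 of 324 in the Esr1 cluster and 58 in a cluster led by Gm10754, Rarb, Sh3rf2, Mhrt and Drd1, the dopamine receptor of striatal neurons.

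Few nuclei were rich in a pair of the genes. Avp and Oxt were both at 5 or more UMIs in 19 nuclei, 5.94% of Avp-rich and 16.4% of Oxt-rich nuclei. Cartpt and Nts were both rich in another 19 nuclei, 5.86% of Cartpt-rich and 8.60% of Nts-rich nuclei. Cartpt was rich in 24 Pmch-rich nuclei (17.9% of Pmch-rich and 7.41% of Cartpt-rich nuclei) and in 15 Pomc-rich nuclei (17.2% of Pomc-rich and 4.63% of Cartpt-rich nuclei), and each other pair shared at most 6. No nucleus was rich in both Pmch and Hcrt, or in both Agrp and Pomc, as was the case for most pairs of the genes. Rich nuclei of these genes were few (134, 72, 66 and 87 of 111187 neuron nuclei), so that 0 shared nuclei cannot show exclusion.

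Genes known to mark these neurons were compared between rich and other neuron nuclei within each library (two-sided exact sign-flip permutation test over libraries, Benjamini-Hochberg adjusted over the pairs tested). Of 30 pairs, 27 had at least 6 libraries with 5 rich nuclei, and 21 partners were higher and 3 lower in the rich nuclei. The share of all genes that would pass the same comparison was not computed, so these counts have no background. Avp with Oxt, Pmch with Cartpt and Pomc with Cartpt were each tested in both directions, and the partners were chosen with earlier results of these data known. Sim1, which specifies the paraventricular and supraoptic nuclei, was at a median of 528 CPM in Avp-rich against 12.3 CPM in other nuclei, higher in 12 of 12 libraries (log2 difference 4.93 ± 0.48, SD, n = 12, exact permutation adjusted p = 0.0029). In Oxt-rich nuclei Sim1 was at 597 CPM against 12.9 CPM, higher in 11 of 11 libraries (log2 difference 5.11 ± 0.40, n = 11, exact permutation adjusted p = 0.0029). Otp, which acts in the same lineage, was higher by 2.88 ± 0.43 in Avp-rich and 3.28 ± 0.57 in Oxt-rich nuclei on the log2 scale, in every library tested. Each peptide was also a partner of the other, with Oxt higher in 11 of 12 libraries in Avp-rich nuclei (3.84 ± 2.11) and Avp in 11 of 11 libraries in Oxt-rich nuclei (4.22 ± 1.78).

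Pmch-rich nuclei were higher in Tacr3, the neurokinin B receptor (log2 difference 3.78 ± 0.87, 11 of 11 libraries), and in Cartpt (3.38 ± 0.66, 11 of 11 libraries), and lower in the glutamate transporter Slc17a6 (-0.80 ± 0.82, SD, n = 11, exact permutation adjusted p = 0.0176), a call that was lost at 3 UMIs (-0.64, adjusted p = 0.0555). A UMI of Slc17a6 was present in a median of 33.3% of Pmch-rich and 30.4% of other nuclei. GABA genes (Gad1, Gad2 or Slc32a1) had a UMI in 85.8% of Pmch-rich nuclei. Hcrt-rich nuclei were higher in Pdyn, the dynorphin precursor that orexin neurons co-release (3.19 ± 0.82), in Lhx9 (2.70 ± 0.61) and in Nptx2 (2.04 ± 0.67), each in 9 of 9 libraries (exact permutation adjusted p = 0.0059 for each). GABA genes had a UMI in 11.1% of Hcrt-rich nuclei.

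Pomc-rich nuclei were higher in Cartpt (3.95 ± 0.84) and Tbx3, a factor of arcuate neurons (3.69 ± 0.97), each in 10 of 10 libraries, and in Prdm12 (1.62 ± 1.49, 7 of 10 libraries, exact permutation adjusted p = 0.0183). Agrp-rich nuclei were higher in the leptin receptor Lepr in 6 of 6 libraries (2.53 ± 1.12, SD, n = 6, exact permutation adjusted p = 0.0352). Npy, the peptide that Agrp neurons co-release, was at a median of 157 CPM against 5.48 CPM and higher in 5 of 6 libraries, but did not pass (2.80 ± 2.23, SD, n = 6, exact permutation adjusted p = 0.0675). Slc32a1, the vesicular GABA transporter, did not pass either and was higher in 1 of 6 libraries (-0.72 ± 1.04, SD, n = 6, exact permutation adjusted p = 0.156). With 6 libraries the smallest exact p is 0.0312. Among nuclei with at least 3 Agrp UMIs, Npy passed (1.07, exact permutation adjusted p = 0.0275), and the difference of Lepr was 0.56 (exact permutation adjusted p = 0.0391).

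Gal-rich nuclei were higher in Th, the enzyme of dopamine synthesis (2.73 ± 1.05, 12 of 12 libraries), in Isl1 (1.24 ± 1.05) and in Slc32a1 (0.61 ± 0.48), and GABA genes had a UMI in 93.7% of them. Nts-rich nuclei were higher in Slc32a1 (0.47 ± 0.35) and lower in Slc17a6 (-1.78 ± 1.60) and in the neurotensin receptor Ntsr1 (-0.57 ± 0.62). Ntsr1 was at a median of 0 CPM in Nts-rich and 4.84 CPM in other nuclei, below the pseudocount of 5 CPM. At that level, rich nuclei too few to hold an Ntsr1 UMI give a lower value, and the call was not read as lower expression. In Cartpt-rich nuclei Pmch (3.99 ± 2.33) and Pomc (2.73 ± 2.20) were higher in 10 of 12 libraries each, while Slc17a6 did not pass (-0.32 ± 0.65, SD, n = 12, exact permutation adjusted p = 0.119) and passed at a limit of 3 UMIs (-0.29, exact permutation adjusted p = 0.0275). At a limit of 10 UMIs the calls of Prdm12 in Pomc-rich, of Pmch and Pomc in Cartpt-rich and of Ntsr1 in Nts-rich nuclei were lost, with log2 differences of 1.91, 1.09, 1.66 and -0.65, and Slc32a1 in Nts-rich nuclei was at -0.048. Trh had only 4 libraries with 5 rich nuclei and was not tested.

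**Figure D2:**
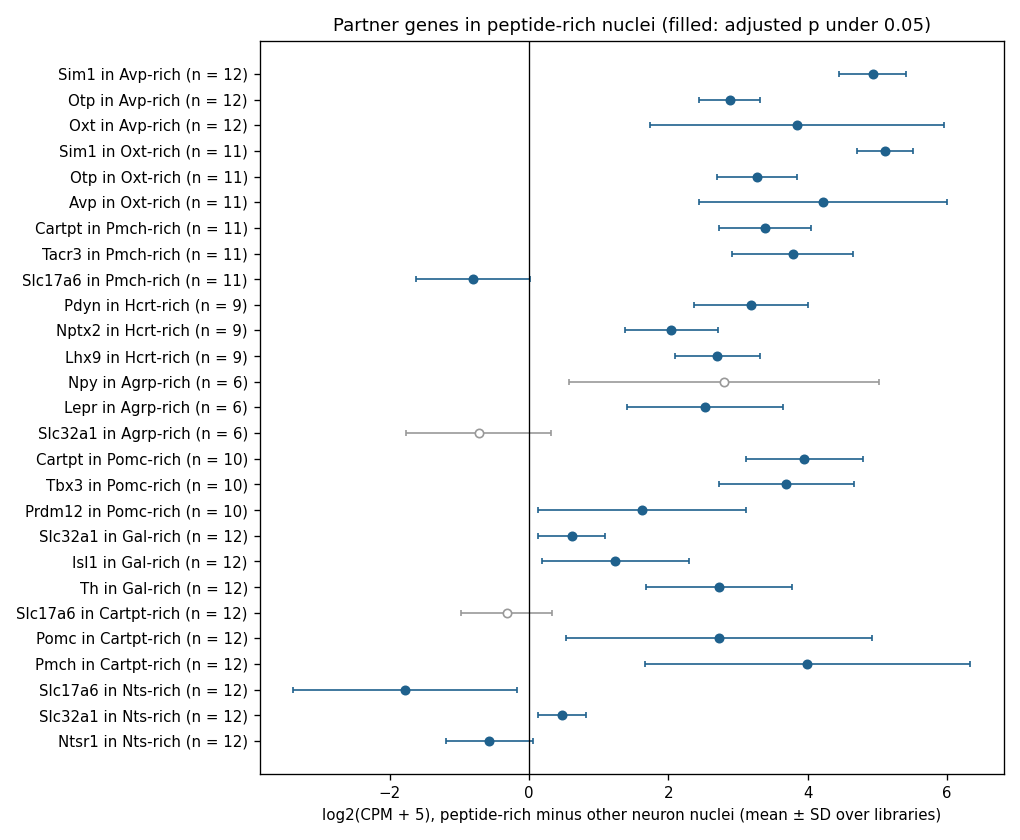
Mean difference in log2(CPM + 5) of each partner gene between rich and other neuron nuclei of the same library, with SD over n libraries as bars. Filled points passed an adjusted p of 0.05: 21 lie to the right of 0 and 3 to the left, and the 3 open points did not pass.

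The genes that led the rich nuclei, beside the 10 genes themselves, were described by fold without a test, since they were chosen for it. Sim1 led Avp-rich (527 against 12.7 CPM), Oxt-rich (35.4-fold) and, after Gm28526, Trh-rich nuclei (20.8-fold), and Gem was among the first 3 in both Avp- and Oxt-rich nuclei. Pmch-rich nuclei were led by Tacr3, Igf1 and Sfta3-ps. Hcrt-rich nuclei were led by Rfx4, at 814 CPM against 4.56 CPM and present in 98.6% of them, then by Csta2 and Hmcn1. Agrp-rich nuclei were led by the protease gene Corin (19.3-fold), Npy (10.2-fold) and Irs4 (8.24-fold). Pomc-rich nuclei were led by Tbx3os1, Asb4 and Plagl1, and Gal-rich nuclei by Tent5a, Esr1 and Peg10. Lepr, Nr4a3 and 1700016P03Rik led Cartpt-rich nuclei, and Fosb, 1700016P03Rik and Egr4, which include activity genes, led Nts-rich nuclei.

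The background of free RNA was read in oligodendrocytes, which do not make these peptides. A UMI was present in 1.60% of 28994 oligodendrocyte nuclei for Avp (95% Wilson interval 1.47% to 1.75%), 1.25% for Pmch, 1.17% for Agrp and 1.11% for Oxt, and in 0.169% to 0.576% for the other 6 genes. The Avp interval pools the libraries and covers counting error only, and the share ran from 0.457% to 2.83% by library. Median depths were 1881 UMIs in oligodendrocytes and 7565 UMIs in neurons. In neurons that were not rich in the gene, the shares were 2.22% for Avp, 1.36% for Oxt and 1.33% for Pmch. Across the 9 classes of other cells, the share for Avp ran from 1.28% in microglia to 2.36% in endothelial cells, and 4 of their nuclei were Avp-rich.

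To compare the classes at equal depth, each nucleus of at least 2000 UMIs was thinned to 2000, which kept 109924 neuron and 12993 oligodendrocyte nuclei and left out 1263 and 16001. Avp was then seen in 0.643% of the neuron nuclei that were not rich in it and in 1.26% of oligodendrocytes, and was higher in neurons in 2 of 12 libraries. Oxt (0.408% against 0.970%, 2 of 12 libraries) and Pmch (0.424% against 0.885%, 1 of 12 libraries) were likewise lower in neurons. Hcrt (0.201% against 0.246%, 8 of 12 libraries) and Pomc (0.421% against 0.393%, 7 of 12 libraries) were near it. Unthinned, nuclei of these neurons held 2.47 Avp UMIs per 100 nuclei against 1.73 in oligodendrocytes, 1.55 against 1.27 for Oxt and 1.42 against 1.35 for Pmch, and were higher in 12, 11 and 10 of 12 libraries. They held 0.735 Hcrt UMIs against 0.369 and 1.65 Pomc UMIs against 0.514, each higher in 12 of 12 libraries. The order of the pooled values of Avp, Oxt, Pmch and Hcrt thus turned with the scale, and was read neither as expression nor as its absence.

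Agrp (4.70% against 1.09%), Cartpt (1.36% against 0.462%) and Nts (0.942% against 0.423%) were higher in the other neurons in 12 of 12 libraries, and Gal (0.593% against 0.300%) and Trh (0.349% against 0.192%) in 10 of 12. Oligodendrocytes were the lowest class outside neurons by the unthinned share for Agrp, Pomc, Cartpt and Nts. Nts had a UMI in 3.33% of pericytes against 2.76% of the other neurons, and Cartpt in up to 1.57% (microglia), and 8 Nts-rich and 7 Cartpt-rich nuclei lay outside neurons. For Agrp, the other 8 classes outside neurons had a UMI in 4.37% (microglia) to 10.6% (choroid plexus epithelium) of nuclei, at median depths of 1281 to 4910.5 UMIs, so that low Agrp counts were not particular to neurons. Whether reads of the overlapping genes enter them was not tested.

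**Figure D3:**
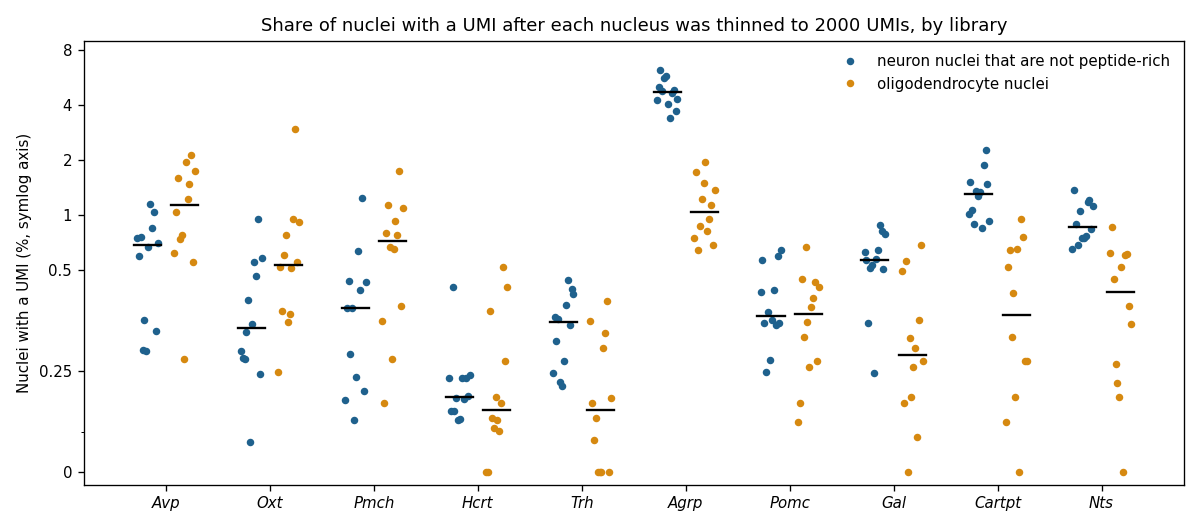
Share of nuclei with a UMI (symlog axis) in each of the 12 libraries after thinning to 2000 UMIs, for neuron nuclei not rich in the gene and for oligodendrocytes, with black lines at the medians over libraries. Oligodendrocytes are the higher class for Avp, Oxt and Pmch, while the neurons of 12 of 12 libraries are higher for Agrp, Cartpt and Nts.

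The oligodendrocyte level differed between libraries. Avp ranged from 2.14 to 14.3 CPM, Oxt from 1.75 to 17.6 CPM and Pmch from 2.33 to 16.1 CPM, and for all 3 genes the highest library was 3xTg-AD replicate 10 of 12 months and the lowest 3xTg-AD replicate 6 of 12 months. Over the 12 libraries, the relation of the oligodendrocyte level to the share of rich nuclei was closest for Oxt (Pearson r = 0.73, permutation p = 0.00835, Spearman rho = 0.64, permutation p = 0.0274). The adjusted p over 20 relations was 0.167 for r and 0.152 for rho, and r was 0.42 without the 2 libraries farthest from the median. Within the 6 libraries of each age, r was 0.34 at 6 months and 0.80 at 12 months. Of the 20 relations computed, 0 passed an adjusted permutation p of 0.05, and 3 had an unadjusted p under 0.05 for r.

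The hypothalamic content of the libraries was also read from the factor list. Summed over neuron nuclei, the 12 factors were at 24.9, 25.1 and 22.5 CPM in WT and 16.8, 25.5 and 26.7 CPM in 3xTg-AD libraries at 6 months, and at 24.0, 21.4 and 24.1 CPM in WT and 27.4, 13.8 and 30.2 CPM in 3xTg-AD libraries at 12 months. The lowest and the highest library were both 3xTg-AD libraries of 12 months, replicates 6 and 10. Neuron nuclei with at least 2 factor UMIs made up 2.11% to 5.04% of the neuron nuclei of each library, against 0% to 0.0552% of its oligodendrocytes. These shares were not thinned, and median depths were 7565 UMIs in neurons and 1881 UMIs in oligodendrocytes. The range over libraries was 2.19-fold for the factors and 8.28-fold for the striatal genes, from 50.2 to 416 CPM.

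Member levels in neurons were set against the factor level over the 12 libraries. Nts had the highest Pearson coefficient (Pearson r = 0.64, permutation p = 0.0243, Spearman rho = 0.64, permutation p = 0.0279, adjusted p = 0.243 for r), with r = 0.55 without the 2 farthest libraries, and r = 0.51 within the 6-month and 0.73 within the 12-month libraries. Cartpt had r = 0.54 and rho = 0.71 (permutation p = 0.0648 and 0.0122, adjusted p = 0.248 and 0.152), the highest rho, with r = 0.59 without the 2 farthest libraries, and Hcrt had r = -0.06 (permutation p = 0.864). For Cartpt, r was 0.30 within the 6-month and 0.68 within the 12-month libraries. After adjustment 0 of these 10 relations passed.

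Rich shares were then set against genotype and against age by exchanging the labels of libraries in every way the design allows, genotypes within ages and ages within genotypes (exact permutation, two-sided). Of 11 shares, those of the 10 genes and of any gene, 0 passed either comparison. With 400 arrangements of the labels, a single share at the smallest p could not have passed the adjustment over 11 shares. For Avp the mean share was 0.25% ± 0.080 in the 6 3xTg-AD libraries, where the 6 WT libraries had 0.325% ± 0.116 (mean ± SD; exact permutation p = 0.26, 0.597 after adjustment). For any of the genes it was 1.26% ± 0.347 against 1.45% ± 0.328 (mean ± SD, exact permutation p = 0.38, 0.597 after adjustment). Over 17 alternatives, other UMI limits among them, the difference for any gene (-0.198 percentage points) ran from -0.316 to -0.0232. That for Avp (-0.0748) ran from -0.101 to -0.0269. The lowest unadjusted p was that of Agrp by age, at 0.0374% ± 0.0140 in libraries of 12 months and 0.0779% ± 0.0473 in those of 6 months (mean ± SD, n = 6; exact permutation p = 0.04, 0.44 after adjustment).

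**Figure D4:**
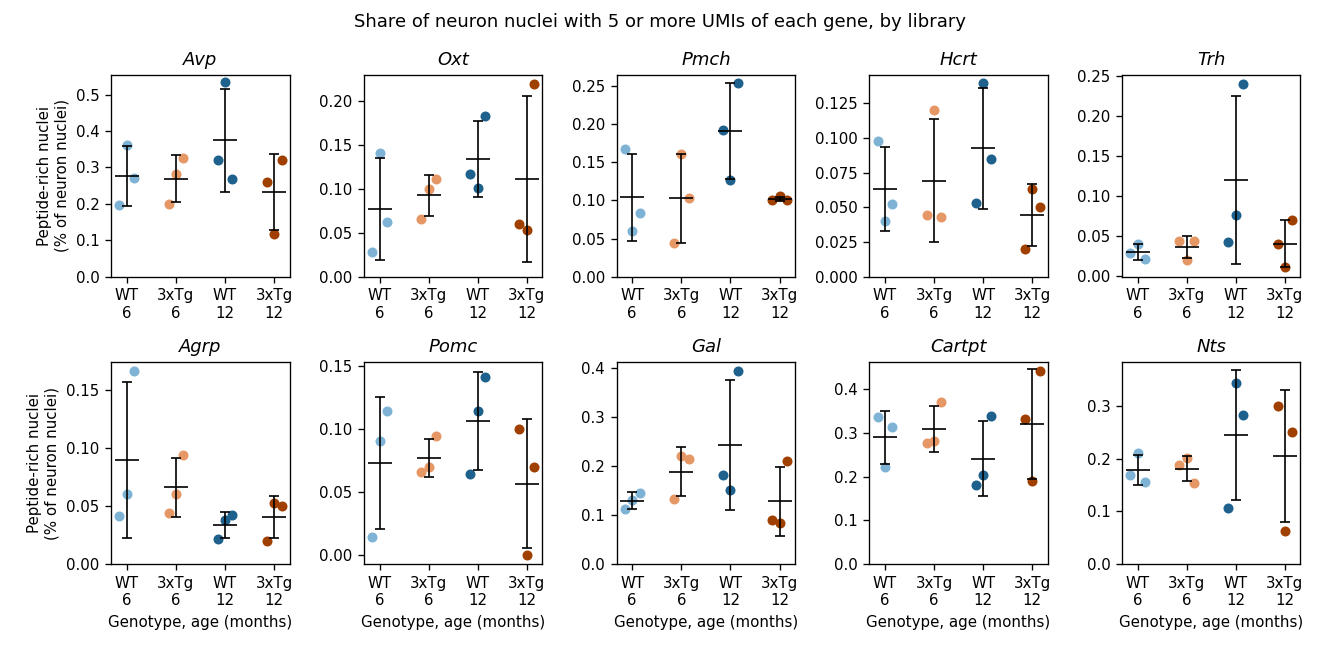
Share of neuron nuclei with 5 or more UMIs of each gene, with 1 point per library, the mean as a horizontal line and SD as bars, for 3 libraries per genotype and age. The groups overlap in most panels, and single libraries stand high for Trh in WT at 12 months (17 nuclei) and for Oxt in 3xTg-AD at 12 months (22 nuclei).

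The level of the genes in the neuron sums was then compared between 3xTg-AD and WT libraries at each age with edgeR over all genes. In such sums, fewer peptide neurons and less RNA in each cannot be told apart. At 6 months 0 of the 10 genes passed an adjusted p of 0.05 with an absolute log2 fold change over 0.2, where 1.34% of 20857 tested genes did, and 1 of the 10 had an unadjusted p under 0.05, as did 2365 of all genes tested. DESeq2 also called 0 of them. The median log2 fold change of the 10 genes was 0.15, against -0.01 over all genes tested. Oxt was at 6.33, 11.9 and 11.9 CPM in 3xTg-AD and 3.04, 6.52 and 6.83 CPM in WT libraries, where the lowest 3xTg-AD value lay within the WT range (log2 fold change 0.93 ± 0.34, SE, edgeR adjusted p = 0.347).

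At 12 months 0 of the 10 genes passed, where 2.75% of 20768 tested genes did, and 4 of the 10 had an unadjusted p under 0.05, as did 4161 of all genes tested. Their median log2 fold change was -0.17, against 0.00 over all genes. Cartpt was at 10.3, 7.83 and 14.2 CPM in 3xTg-AD and 6.89 to 8.07 CPM in WT libraries, with overlap only through 3xTg-AD replicate 6 (log2 fold change 0.62 ± 0.19, SE, edgeR adjusted p = 0.110). It passed with DESeq2 (log2 fold change 0.63, adjusted p = 0.0219) and with edgeR when nuclei rich in any of the 10 genes were left out (log2 fold change 1.03, adjusted p = 0.0267). The latter fit left nuclei out by their own Cartpt counts, among others, and Cartpt-rich nuclei held 36.8% of its UMIs. It thus compared only nuclei with low Cartpt counts and is no separate support for the difference. The striatal genes were also higher, at 300, 294 and 101 CPM in 3xTg-AD and 50.2, 68.9 and 57.1 CPM in WT libraries of 12 months. Among these 3xTg-AD libraries, Cartpt was highest in replicate 10, where the striatal genes were lowest and the hypothalamic factors highest (30.2 CPM). A list of hippocampal genes was lower without overlap, at 35.0, 35.6 and 72.1 CPM in 3xTg-AD and 90.1, 77.3 and 86.1 CPM in WT libraries. The part of these shifts in the difference was not tested.

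Hcrt was at 1.10, 2.86 and 3.71 CPM in 3xTg-AD and 2.80, 7.12 and 6.51 CPM in WT libraries of 12 months (log2 fold change -1.02 ± 0.42, SE, edgeR adjusted p = 0.221). Pmch was at 8.04, 6.18 and 11.1 CPM in 3xTg-AD and 12.1, 9.82 and 21.4 CPM in WT libraries (-0.70 ± 0.27, SE, edgeR adjusted p = 0.198) and the groups of both genes overlapped. With the rich nuclei left out, the Pmch value was 0.25 (edgeR adjusted p = 0.853). Pmch-rich nuclei held 80.7% of its UMIs, so that this fit covered only its low counts. Over 13 alternatives the Hcrt value ran from -1.34 to -0.32. Agrp was higher by 0.35 ± 0.15 on the log2 scale (edgeR adjusted p = 0.232), at 24.1, 29.3 and 23.5 CPM in 3xTg-AD and 23.6, 17.9 and 21.7 CPM in WT libraries. The Agrp values overlapped by a single library, since only 3xTg-AD replicate 10 lay below the highest WT value.

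**Figure D5:**
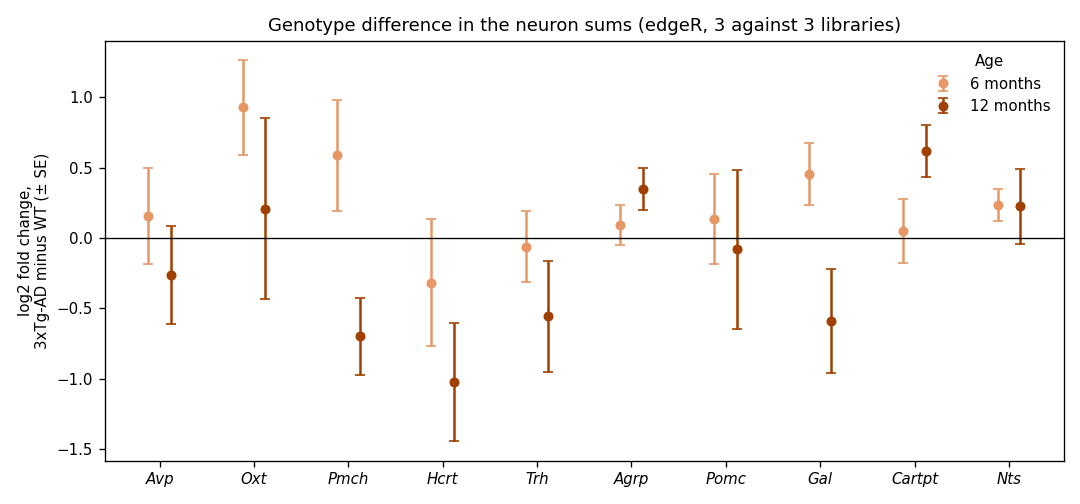
Log2 fold change of each gene in the neuron sums between 3xTg-AD and WT libraries, with SE as bars, at 6 and at 12 months (3 against 3 libraries). Oxt is highest at 6 months (0.93) and Hcrt lowest at 12 months (-1.02), and 0 of the 20 values passed the threshold.

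Whether the genotype difference itself differed between the ages was tested over all 12 libraries, and 0 of the 10 genes passed, where 0.135% of 21556 tested genes did. The lowest unadjusted p-values were those of Pmch (log2 interaction -1.29 ± 0.54, SE, edgeR adjusted p = 0.338) and Gal (-1.05 ± 0.49, SE, edgeR adjusted p = 0.393). With the rich nuclei left out, the Pmch interaction was 0.051 (edgeR adjusted p = 0.991), a value of its low counts alone.

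The 3 lists of the same pathway were read beside them. Of 10 genes of peptide processing (the convertases Pcsk1 and Pcsk2, Cpe, Pam, the granins and their relatives), all were tested and 0 passed at either age, where 1.34% of all genes tested did at 6 months and 2.75% at 12 months, with median log2 fold changes of 0.12 at 6 months and -0.11 at 12 months. Of 16 receptors of these peptides, 13 and 12 were tested and 0 passed, with medians of 0.07 and 0.11. Of 19 other peptide precursors, 15 were tested at 6 months and 0 passed (median 0.09), and 17 were tested at 12 months and 4 passed, all higher in 3xTg-AD libraries (median 0.09), where 243 of all 20768 genes tested passed as higher and 328 as lower.

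Those 4 were the tachykinin precursor Tac1 (log2 fold change 1.57 ± 0.18, SE, edgeR adjusted p = 0.00505), Penk, the enkephalin precursor (1.95 ± 0.37, adjusted p = 0.0352), Pdyn (1.42 ± 0.28, adjusted p = 0.0396) and Npy (1.32 ± 0.27, adjusted p = 0.0419). At 6 months the log2 fold changes of Tac1, Penk, Pdyn and Npy were -0.26, -0.67, -0.47 and 0.02, and 0 of the 4 passed the test of the interaction (edgeR adjusted p = 0.127 to 0.188). Tac1 was at 36.2, 33.9 and 25.1 CPM in 3xTg-AD and 8.79, 11.5 and 13.7 CPM in WT libraries, without overlap. Tac1 passed with each of the 6 libraries left out in turn (adjusted p at most 0.0291), whereas Penk and Pdyn passed in 2 and Npy in 1 of these 6 fits. The calls of all 3 were lost without 3xTg-AD replicates 2 or 6 or WT replicates 4 or 12, and that of Npy also without WT replicate 8, with log2 fold changes of 1.08 to 2.01 and adjusted p-values of 0.0686 to 0.18. Penk and Pdyn did not pass in a fit of all 12 libraries either (edgeR adjusted p = 0.0549 and 0.0647). Tac1, Penk and Pdyn are known from striatal projection neurons, and the striatal genes given above were higher in the same 3xTg-AD libraries. Their part in these differences was not tested.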

How the data were processed

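Per the labels and the study's methods, the authors used Cell Ranger 6.1.1 and the mm10 reference (GRCm38). The deposited values are raw UMI counts per gene and nucleus, before removal of ambient RNA or filtering. Nuclei were retained with 500 to 10000 genes, no more than 5% of UMIs from mitochondrial genes, and a ratio of log10 gene number to log10 UMI number above 0.8. Clusters (2000 variable genes without the 10 genes, 50 components, 20 neighbours, Leiden resolution 0.7) were named by markers, with limits set after the clusters were seen. A cluster was neuronal if Snap25 was found in at least 80% of its nuclei without glial or vascular enrichment, and 7741 nuclei of mixed clusters were left out. Neurons were clustered again at a resolution of 2 with 30 components. Scrublet (expected share 8%) marked 2.93% of neurons, which were kept in the main analysis.

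Counts of neuron nuclei were summed per library and tested with the quasi-likelihood test of edgeR 4.0.16 (TMM, filterByExpr), and p-values were adjusted with the Benjamini-Hochberg method. DESeq2 1.42.0 was an alternative. On simulated counts at 6 months, 74.7% of genes changed by 1 and 99.0% of those changed by 2 on the log2 scale were called among 20626 genes. At 12 months these shares were 72.9% and 95.9% among 20559 genes, and for the interaction 41.4% and 72.0% among 21330 genes. The changed genes were drawn at random from all genes tested, so these shares are not those of the 10 genes. The SE of the 10 genes at 12 months ran from 0.15 (Agrp) to 0.64 (Oxt). Intervals and limits of zero counts cover counting error only, and partner genes were compared with a pseudocount of 5 CPM. Each library is 1 animal by the study's methods, and the libraries were sequenced together. Some items, an allele and genes of the marker checks among them, are not reported here. The members, partner genes and lists were chosen with earlier results of these data known. Genes were named by a rule: the 10 genes, their partners, the 3 leading genes found in at least 25% of rich nuclei for genes with at least 20 rich nuclei, and list members that passed. Fos, Btg2 and other cluster-leading genes, Hmx2 and Hmx3 were named after their values were seen. The alternatives were other limits of 3 and 10 UMIs for rich nuclei, thinning to 2000 UMIs, neurons by their own markers, doublets or rich nuclei left out, other normalization or no filter, and each library left out.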

Additional observations from a re-analysis of the deposited data

How the results depend on the processing

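No paired analysis was possible because the replicate numbers run from 1 to 12 and the groups share none, and no label used here ties libraries of different groups. Of 1021 refits of 103 single values, 926 kept direction and side of the threshold, 71 changed sign, 20 lost a call and 4 gained one, and the cause was not tested. Calls among these values were limited to 21 higher and 3 lower partner pairs and 4 peptide genes. Most refits thus had no call to lose, and the 926 is no measure of how stable the calls were. Penk, Pdyn and Npy each kept the call in 8 of 13 refits. DESeq2 called 629 genes at 6 months, 1678 at 12 months and 492 for the interaction, against 280, 571 and 29 with edgeR. A fit of all 12 libraries called 941 genes at 12 months, and the interaction without the filter on low counts called 50. With 1 library left out, the counts were 99 to 325 at 6 months, 92 to 1974 at 12 months (the highest without 3xTg-AD replicate 10) and 3 to 755 for the interaction (the highest without the same library). Of the 10 genes, 1 (Cartpt) was called at 12 months with DESeq2 and 1 (Cartpt) with rich nuclei left out. With rich nuclei left out the log2 values of Pmch and Pomc at 12 months were 0.25 and 0.18, and the interactions of Pmch and Nts 0.051 and 0.054. These fits left nuclei out by the counts of the 10 genes themselves and so covered only their low counts. At a limit of 10 UMIs, 15 partner pairs passed, with fewer pairs tested, and Slc32a1 in Nts-rich nuclei was at -0.048.

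The sign changed for the values that follow. Genotype differences in the share of rich nuclei, in percentage points, were 0.00327 for Oxt and 0.0446 for Nts at 3 UMIs, -0.0161 for Cartpt at 10 UMIs, and 0.00169 for Trh and -0.00376 for Cartpt after thinning. Age differences were -0.00614 for Gal, 0.00866 for Cartpt and -0.00311 for Nts at 10 UMIs, -0.00169 for Trh and -0.00673 for Gal after thinning, and -0.000696 for Hcrt in neurons taken by their own markers. Leaving out 1 library gave genotype differences of -0.0311 to 0.0121 for Oxt, -0.0201 to 0.0110 for Agrp, -0.0501 to 0.0104 for Gal and -0.0528 to 0.0168 for Nts. It gave age differences of -0.00925 to 0.0596 for Avp, -0.00956 to 0.0150 for Hcrt, -0.00814 to 0.0208 for Pomc, -0.0118 to 0.0488 for Gal and -0.0486 to 0.0139 for Cartpt. Log2 fold changes with 1 library left out ran at 6 months from -0.13 to 0.59 for Avp, -0.38 to 0.095 for Trh, -0.011 to 0.25 for Agrp, -0.15 to 0.52 for Pomc and -0.14 to 0.31 for Cartpt. At 12 months they ran from -0.47 to 0.060 for Avp, -1.04 to 0.73 for Oxt and -0.65 to 0.35 for Pomc, and the interaction from -0.78 to 0.20 for Pomc and -0.21 to 0.22 for Nts. Coefficients with the factor level were -0.0374 for Pmch, -0.113 for Trh and 0.432 for Agrp without the 2 farthest libraries, and 0.107 for Hcrt and 0.364 for Agrp at 6 months. Those of the oligodendrocyte level were 0.296 for Gal without the 2 farthest libraries, -0.177 for Nts at 6 months, and -0.0970 for Pmch and 0.0186 for Gal at 12 months. Rich nuclei were few in single libraries, such as 1 to 17 for Trh and 0 to 11 for Pomc.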
